A study of Sus scrofa with 8 samples.

Results

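The muscle actins ACTA1, ACTA2, ACTC1 and ACTG2 and the beta-tubulin TUBB6 were 5 of the 21301 genes counted in every library of embryonic pig somite and myotome cells. The genes were chosen by their levels in PAX3+, MYF5+, MYH3+ and cardiac cells of these same libraries, so those levels are described here without a test. Differences between stages and breeds were tested, but with the genes chosen after earlier results of these data were known. The gene lists of the matrices name 4 of the genes, and ACTA1 stands there only under its Ensembl identifier, ENSSSCG00000010190, which was paired with its name through a table of gene identifiers.

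Single cells were profiled with 10x Genomics 3' chemistry in 8 libraries, 1 for each of 4 stages in 2 breeds. Tibetan pigs are called ZZ and the Duroc x Tibetan cross is called DZ. The libraries of embryonic days 16, 18 and 21 (E16, E18 and E21) came from somites, the segments of the trunk that give rise to skeletal muscle, and those of E28 came from the myotome, the muscle-forming part of the somite. Each library was a mixture of 5 embryos of 1 sow, so no library had a replicate of its own stage and breed, the tissue changed together with E28, and the software version that made the counts changed together with E16. P-values below therefore rest on differences between these pools that stage and breed leave over, and not on replicates of a stage and breed. The fits leave 1 to 5 residual degrees of freedom. For that reason edgeR draws much of each gene's spread from the other genes, and a p-value does not measure the gene's own spread alone.

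After filtering, 74147 cells were kept, between 5436 and 10956 per library, with 39852689 to 57568710 unique molecular identifiers (UMIs, counted RNA molecules) per library. Of 73464 distinct cell barcodes, 678 (0.923%) occurred in 2 or more libraries and were treated as separate cells. E16-ZZ stood apart, as 39.2% of its barcodes exceeded the mitochondrial limit against 1.05% to 9.15% in the other libraries. In erythroid-like cells, which should lack muscle actin, ACTC1 was highest in E28-DZ, at 173 CPM (its UMIs in the summed cells, with the total of each sum scaled to the usual common size) against 2.71 to 28.3 CPM in the other 7 libraries. Whether free RNA or doublets gave these UMIs was not tested.

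Actin is the protein of the thin filaments on which myosin pulls. Vertebrates carry 4 muscle actins: ACTA1 is the skeletal and ACTC1 the cardiac alpha-actin of striated muscle, ACTA2 is the smooth muscle alpha-actin of vessel walls, and ACTG2 is the gamma-actin of visceral smooth muscle. Embryonic skeletal muscle is known to use ACTC1 and ACTA2 before ACTA1 becomes its main actin. TUBB6 is one of the beta-tubulins from which microtubules are built, and it is known to be present in developing and regenerating muscle fibres.

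The 4 actin genes share most of their coding sequence. On the Sscrofa11.1 assembly, with the RefSeq transcripts, ACTC1 lies on chromosome 1 (chr1:136281119-136286551, plus strand), ACTA1 on chromosome 14 (chr14:60412942-60415687, plus strand), ACTA2 on the same chromosome (chr14:100868295-100886707, minus strand), ACTG2 on chromosome 3 (chr3:69097366-69121542, minus strand) and TUBB6 on chromosome 6 (chr6:97233639-97240692, minus strand). The coding sequences of any 2 actins were identical at 84.7% to 86.95% of aligned bases. In the last 400 bases of the transcripts, where 3' libraries read, the longest stretch shared by 2 actins was 22 to 29 bases. In the coding sequences it was 25 to 45 bases, so a longer exact match could tell these 4 actins apart. The non-muscle actins and other genes were not compared. Whether any reads were lost to shared stretches was not tested.

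The 250 bases before the transcription start of the 4 actins are shown because these promoters hold matches to the CArG box, the site of serum response factor, and the one of TUBB6 does not. Capitals mark a CArG box (CC and GG around 6 bases that are all A or T) or the same site with 1 of the central bases a C or G, on either strand, as these letters read the same way in both forms. Each sequence runs 5' to 3' on the strand of the gene.
ACTA1: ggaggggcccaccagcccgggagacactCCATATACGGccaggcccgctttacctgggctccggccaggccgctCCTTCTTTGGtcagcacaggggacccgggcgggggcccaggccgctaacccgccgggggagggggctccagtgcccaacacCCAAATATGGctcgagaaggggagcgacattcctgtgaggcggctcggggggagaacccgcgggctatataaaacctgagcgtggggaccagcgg
ACTA2: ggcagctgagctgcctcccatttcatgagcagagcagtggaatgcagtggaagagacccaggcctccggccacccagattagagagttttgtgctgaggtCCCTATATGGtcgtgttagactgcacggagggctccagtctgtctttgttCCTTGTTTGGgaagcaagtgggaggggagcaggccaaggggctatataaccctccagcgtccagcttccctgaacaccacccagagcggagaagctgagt
ACTC1: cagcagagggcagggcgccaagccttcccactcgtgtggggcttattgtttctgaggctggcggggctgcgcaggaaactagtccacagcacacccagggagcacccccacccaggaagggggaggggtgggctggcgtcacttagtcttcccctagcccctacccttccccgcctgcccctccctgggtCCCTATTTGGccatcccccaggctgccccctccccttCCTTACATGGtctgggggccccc
ACTG2: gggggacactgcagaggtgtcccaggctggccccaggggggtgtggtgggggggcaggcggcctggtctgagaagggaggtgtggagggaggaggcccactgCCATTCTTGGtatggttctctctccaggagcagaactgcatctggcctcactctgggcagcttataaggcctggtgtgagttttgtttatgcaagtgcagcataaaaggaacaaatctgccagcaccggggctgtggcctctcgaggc
They cover chr14:60412692-60412941 for ACTA1, chr14:100886708-100886957 for ACTA2, chr1:136280869-136281118 for ACTC1 and chr3:69121543-69121792 for ACTG2. ACTA1 held a full CArG box (CCAAATATGG) 95 bases before the start and 2 sites with 1 central C or G. ACTA2 and ACTC1 each held 2 sites of the second kind, among them CCCTATATGG and CCCTATTTGG, and ACTG2 held 1. Among 19531 promoters of the same length, 1.37% held a full CArG box and 5.67% the form with 1 central C or G. The general E-box CANNTG, present in 61.3% of all promoters, was found in those of ACTA2 and ACTG2. A match to letters is a description and does not show that a factor binds.

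Cells were sorted into states by clustering that left the 5 genes out, and the states were named by markers. Pax3+ progenitor-like cells numbered 2124, progenitor/myoblast-like cells, which carry MYF5, numbered 4012, and the myocyte-like cells fell into 1493 cells highest for MYOG, the differentiation factor myogenin, and 428 cells highest for MYH3, the embryonic myosin heavy chain. Since the clusters were named by these markers, their levels describe the states and do not check them. In the libraries with at least 20 cells, MYH3 stood at 2122 to 7665 CPM in the MYH3-high cells, at 73.8 to 204 CPM in the MYOG-high cells and at 0 to 21.3 CPM in progenitor/myoblast-like cells. Of the 10 myocyte markers listed, 9 were named in the matrices, and of the 11 cardiac markers 8. Cardiac muscle cell-like cells numbered 430, all from E16 and E18, with all 8 of those markers detected in each library and no UMI of MYOG.

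The cluster borders depended on the random seed of the Louvain clustering, so the second and the third seed were added after the values were seen. Cardiac cells numbered 436 and 435 under the second and the third seed and myocyte-like cells 1756 and 1906, against 430 and 1921 in the clustering used here. The third seed also gave 2954 Pax3+ progenitor-like and 4058 progenitor/myoblast-like cells. Under the second seed no cluster was named progenitor/myoblast, and the 2116 cells named Pax3+ came almost only from E21 and E28, so both names were of other cells there. Test results below that a seed changed are given with its value. The levels, percents and shares by state were not computed again under the other seeds.

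Among the 4 skeletal states ACTC1 was lowest in the Pax3+ state, and its median was higher at each later state. In Pax3+ progenitor-like cells its level was 39.2 to 395 CPM over 6 libraries with a median of 132 CPM, above the 2.71 to 28.3 CPM of erythroid-like cells of the same libraries in all 6. That level was not set apart from other cells outside muscle, since the medians were 210 CPM in neuron-like cells, 154 CPM in fibroblast-like cells and 175 CPM in the unnamed cluster 5. In progenitor/myoblast-like cells it stood at 540 CPM in E18-ZZ, 431 CPM in E18-DZ, 1137 CPM in E21-ZZ, 1006 CPM in E21-DZ, 1414 CPM in E28-ZZ and 3591 CPM in E28-DZ. The 6 values lay above every value of the Pax3+ state, and E28-DZ was the highest. MYOG-high cells had 3672 to 12618 CPM in the libraries with at least 20 cells. In MYH3-high cells ACTC1 reached 11063 CPM in E18-ZZ, 10289 CPM in E18-DZ, 33540 CPM in E21-ZZ, 28863 CPM in E21-DZ, 38867 CPM in E28-ZZ and 41269 CPM in E28-DZ, with both E18 libraries below all later ones. Of all 314386 UMIs of ACTC1, 64.9% lay in the 2.59% of cells that were myocyte-like, 14.1% in progenitor/myoblast-like cells and 13.3% in cardiac cells.

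ACTA2, named for smooth muscle, followed the same course at E21 and E28, while at E18 it was high only from the MYOG-high cells on. It was at 8.37 to 69.9 CPM in the Pax3+ state (median 34.5 CPM), where erythroid-like cells showed 0 to 11.01 CPM. That level was not set apart from other cells outside muscle. Medians were 264 CPM in fibroblast-like, 67.3 CPM in lateral plate/coelomic mesoderm-like, 44.2 CPM in epithelial-like and 23.0 CPM in chondrocyte-like cells. Progenitor/myoblast-like cells of E18 had 6.92 CPM (ZZ, 20 cells) and 49.02 CPM (DZ, 56 cells), whereas those of E21 and E28 had 531 to 675 CPM, and the E18 libraries did not overlap with the later ones. MYOG-high cells had 859 to 2132 CPM and MYH3-high cells 2811 to 3754 CPM in the libraries with at least 20 cells. Myocyte-like cells held 33.1% of its 70865 UMIs, progenitor/myoblast-like cells 18.2%, cardiac cells 14.6% and fibroblast-like cells 12.6%.

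TUBB6 was higher along the same states from a low base. It stood at 0 to 11.6 CPM in Pax3+ progenitor-like cells and at 45.8 to 121 CPM in progenitor/myoblast-like cells. MYOG-high cells had 466 CPM in E18-ZZ, 505 CPM in E18-DZ and 237 to 316 CPM at E21 and E28. The MYH3-high level was 445 CPM in E21-DZ, 516 CPM in E21-ZZ, 695 CPM in E28-ZZ, 804 CPM in E18-DZ, 901 CPM in E18-ZZ and 910 CPM in E28-DZ. Unlike ACTC1, ACTA2 and ACTA1 it was low in cardiac cells, at 18.4 to 49.3 CPM. Only the highest library there overlapped with the progenitor/myoblast-like range. Only 31.3% of its 15408 UMIs lay in myocyte-like cells, since progenitor/myoblast-like cells (12.7%), endothelial-like cells (11.2%) and lateral plate/coelomic mesoderm-like cells (10.96%) also carried it.

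ACTA1 appeared last. It was at 0 to 6.26 CPM in progenitor/myoblast-like cells, and erythroid-like cells showed 0 to 2.75 CPM. In the Pax3+ state it was at 0.235 to 13.1 CPM, the higher values in the 33 and 29 cells of the E21 libraries. MYOG-high cells had 157 CPM in E18-ZZ and 166 CPM in E18-DZ but 11.2 to 29.8 CPM in the 4 later libraries. In MYH3-high cells it reached 3092 CPM in E18-ZZ, 3679 CPM in E18-DZ, 1788 CPM in E21-ZZ, 1844 CPM in E21-DZ, 1707 CPM in E28-ZZ and 1914 CPM in E28-DZ. The 4 later libraries lay close together and E18 lay above them. Of its 10659 UMIs, 70.1% were in myocyte-like and 18.95% in cardiac cells.

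ACTG2 was near 0 in skeletal muscle cells. Progenitor/myoblast-like cells had 0 to 3.27 CPM, MYOG-high cells 0 to 1.07 CPM and MYH3-high cells 0 to 1.45 CPM, where erythroid-like cells had 0 to 2.45 CPM. Its 2568 UMIs were spread over fibroblast-like cells with 673 UMIs, epithelial-like cells with 440, cardiac cells with 359, cluster 27 with 330 and lateral plate/coelomic mesoderm-like cells with 295.

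**Figure D1:**
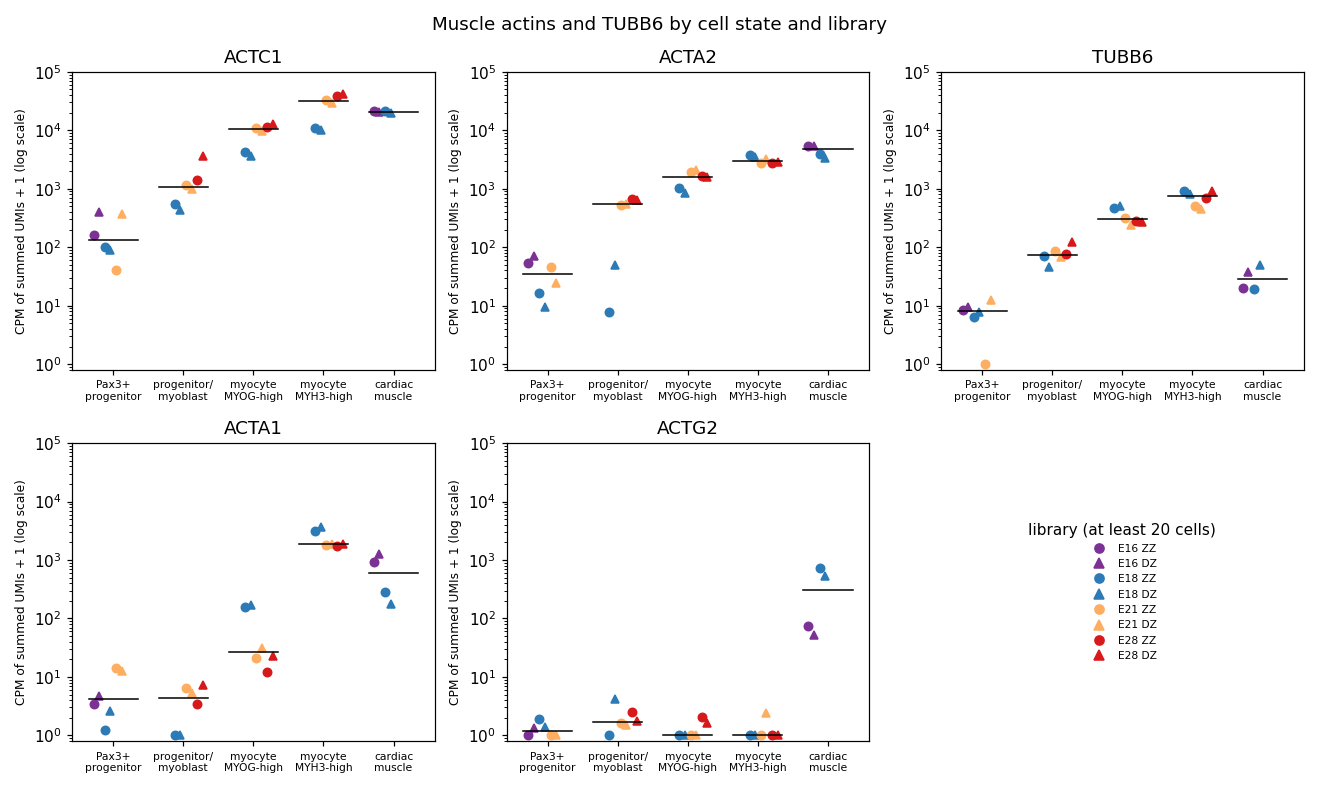
Levels of the 5 genes (CPM of summed UMIs plus 1, log axis) in 4 skeletal states and in cardiac muscle cell-like cells; each point is a library with at least 20 cells, coloured by stage with circles for ZZ and triangles for DZ, and black lines are medians. The medians of ACTC1, ACTA2 and TUBB6 climb from the Pax3+ state on, ACTA1 is at most 6.26 CPM in progenitor/myoblast-like cells, and ACTG2 stands out only in cardiac cells. The states do not hold the same libraries. In E18-ZZ, ACTA2 was at 15.8 CPM in the Pax3+ and 6.92 CPM in the progenitor/myoblast-like state.

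The level of each state was set against the MYH3-high cells of the same library. This percent shows how near a gene was to its MYH3-high level, not when it first came on. By the share of cells with a UMI, given below, the order was another: 62.9% of progenitor/myoblast-like cells had ACTC1, 42.2% ACTA2 and 12.0% TUBB6. As percent of the MYH3-high level, the median in progenitor/myoblast-like cells was 17.9% for ACTA2 (range 0.184% to 24.0% over 6 libraries) and 12.0% for TUBB6 (5.69% to 16.5%). It was 3.92% for ACTC1 (3.39% to 8.70%) and 0.191% for ACTA1 (0% to 0.327%). ACTA1 lay below the other 3 genes in every library, but in E18-ZZ (20 cells) this was 0 UMIs of ACTA1 against 1 UMI of ACTA2, so the counts do not resolve the order of this pair there. The order of the others turned with the stage: ACTA2 stood at 0.184% and 1.39% at E18, below ACTC1 with 4.88% and 4.19% (ZZ first), and at 17.0% to 24.0% later, above ACTC1 with 3.39% to 8.70%. In MYOG-high cells the medians were 57.0% for ACTA2 (24.3% to 68.0%), 52.4% for TUBB6 (29.1% to 62.8%), 33.2% for ACTC1 (28.9% to 38.5%) and 1.39% for ACTA1 (0.655% to 5.08%). Here too the order turned with the stage. At E18 ACTC1 stood at 38.5% and 35.7%, above ACTA2 with 27.5% and 24.3% (ZZ first). In E28-DZ TUBB6 (29.1%) lay below ACTC1 (30.6%). The landmark MYH3 stood at 1.76% in MYOG-high cells (0.980% to 9.63%), so ACTA1 and MYH3 were low together. There MYMK, which drives fusion of myoblasts, was already at 83.6%.

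**Figure D2:**
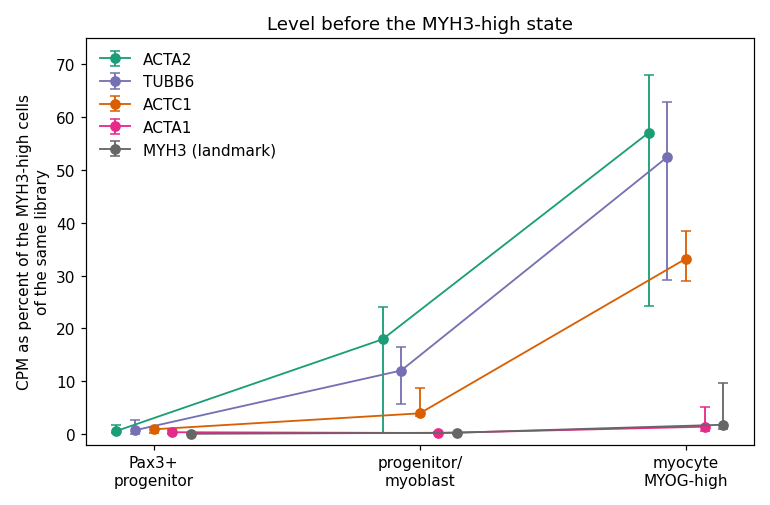
Level of each gene as percent of the MYH3-high cells of the same library, in the 3 earlier states; points are medians over libraries and bars reach from the lowest to the highest library. In MYOG-high cells ACTA2, TUBB6 and ACTC1 had medians of 57.0%, 52.4% and 33.2%, while ACTA1 and the landmark MYH3 had 1.39% and 1.76%.

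Single cells of the myogenic clusters were also selected by marker UMIs in place of the states. These are the levels by which the genes were chosen, and all groups but the last exclude cells with MYH3. The groups also pool the libraries, so stage is mixed in them. For these reasons the values describe the groups and do not check the order. Cells with PAX3 but no MYF5, MYOD1, MYOG or MYH3 (925 cells) had 182 CPM of ACTC1, 61.6 CPM of ACTA2 and 1.79 CPM of ACTA1. Their ACTA2 was not low in every library: it was at 6.94 to 59.7 CPM at E16 and E18 but at 225 and 397 CPM at E21 and 251 CPM in E28-ZZ, where the Pax3+ state had 8.37 to 69.9 CPM in its 6 libraries. Cells with MYF5 but no MYOD1, MYOG or MYH3 (2576 cells) had 1258 CPM of ACTC1, 432 CPM of ACTA2 and 5.38 CPM of ACTA1. Cells with MYOD1 or MYOG but no MYH3 (2231 cells) had 6344 CPM of ACTC1, 1184 CPM of ACTA2 and 9.03 CPM of ACTA1, and 563 cells with at least 2 UMIs of MYH3 had 29117, 2619 and 1585 CPM of these genes in the same order. The MYF5+ cells of E18 differed from later ones for ACTA2, at 63.0 CPM (ZZ) and 60.0 CPM (DZ) against 536 to 579 CPM at E21 and E28, with no overlap.

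Shares of cells with a UMI were compared after thinning each cell to 1500 UMIs. They pool the libraries, so state and stage are mixed in them. Of 2124 Pax3+ progenitor-like cells 2062 came from E16 and E18, and of 4012 progenitor/myoblast-like cells 3923 came from E21 and E28. ACTC1 was found in 13.4% of Pax3+ progenitor-like cells, 62.9% of progenitor/myoblast-like, 98.2% of MYOG-high and 100% of 404 MYH3-high cells, against 4.90% of erythroid-like cells. ACTA2 was found in 3.37%, 42.2%, 81.7% and 92.3% of the same states, against 0.958%. For TUBB6 the shares were 1.19%, 12.0%, 28.1% and 57.4%, against 0.532%. ACTA1 was found in 0.190%, 0.603% and 3.16% of the first 3 states and in 70.5% of MYH3-high cells, against 0.319% of erythroid-like cells. The median depth of erythroid-like cells before thinning was 3719 to 13072.5 UMIs per library and that of MYH3-high cells 4343.5 to 10344.5 UMIs. The share with ACTC1 differed by library in the MYF5+ cells without MYOD1, MYOG or MYH3 selected above. It was 21.2% (ZZ) and 31.9% (DZ) at E18, 44.5% and 48.5% at E21, 39.4% in E28-ZZ and 87.8% in E28-DZ.

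After thinning, ACTC1 was in all 404 MYH3-high and all 316 cardiac cells and in 1460 of 1487 MYOG-high cells, so nearly any cell of these states with ACTA1 had ACTC1 too. In the earlier states 3 of 24 progenitor/myoblast-like and 3 of 4 Pax3+ cells with ACTA1 had no UMI of ACTC1. Of the cells with ACTC1, 70.5% of the MYH3-high and 3.22% of the MYOG-high cells had ACTA1. Of 1682 progenitor/myoblast-like cells with ACTA2, 398 had no UMI of ACTC1, and of 2504 with ACTC1, 1220 had no UMI of ACTA2.

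The first test addressed the stage after onset, that is, whether myocyte-like cells of E21 differ from those of E18. ACTC1 was higher at E21, and the smooth muscle actin ACTA2 passed the test with it. The comparison was added after the values were seen. In edgeR's quasi-likelihood test over the 6 libraries of E18, E21 and E28, the log2 fold change was 1.82 ± 0.18 (SE) for ACTC1 (adjusted p = 2.47e-05) and 0.61 ± 0.18 for ACTA2 (adjusted p = 0.04305). ACTA1, the actin of mature skeletal muscle, was at -0.46 ± 0.17 (adjusted p = 0.0987) and TUBB6 at -0.56 ± 0.17 (adjusted p = 0.0556). So 2 of 4 tested genes were called, where 11.5% of 8953 genes were, and ACTG2 was too low to be tested. ACTA2 was not called without E18-ZZ (0.76), E18-DZ (0.46), E28-ZZ (0.62) or E28-DZ (0.62), with DESeq2 (0.59), with a mitochondrial limit of 5% (0.81), with the 5 genes allowed in the clustering (0.36), under the third seed (0.56) and at 2 or more MYH3 UMIs (0.06), and without E21-DZ it was called at 0.40. The limit of 5% left 4 myocyte-like cells in E18-ZZ, too few for a sum, so E18-DZ alone stood for E18 there. Cells with 2 or more MYH3 UMIs were taken from any cluster for this test, 249 in E28-DZ against 170 in the myogenic clusters selected above. Without E21-ZZ the calls included ACTA1 (-0.55) and TUBB6 (-0.67), as they did with the 5 genes allowed in the clustering (-0.85 and -0.77), and the third seed called TUBB6 (-0.60). Under the second seed, where 43 cells of E18-DZ and 19 of E18-ZZ were named myocyte and only the former were enough for a sum, ACTC1 was at 1.08 and lost its call (adjusted p = 0.295), ACTA2 was at -0.30 and ACTA1 was called at -2.06.

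Both parts of the myocyte-like cells were then tested alone, also chosen after the values were seen. In MYOG-high cells all 4 tested genes were called at E21 against E18, where 10.0% of 7614 genes were: ACTA1 by -2.52 ± 0.29 (adjusted p = 4.79e-06), ACTC1 by 1.54 ± 0.17, ACTA2 by 1.26 ± 0.19 and TUBB6 by -0.67 ± 0.19 (largest adjusted p = 0.0293). MYH3 itself stood at 204 CPM (ZZ) and 166 CPM (DZ) in the MYOG-high cells of E18 and at 73.8 to 101 CPM later, and the part of that difference in the result was not tested. In MYH3-high cells 3 of 4 were called, where 10.9% of 6269 genes were: ACTC1 by 1.77 ± 0.18 (adjusted p = 5.76e-11), ACTA1 by -0.67 ± 0.18 (adjusted p = 0.00944) and TUBB6 by -0.60 ± 0.21 (adjusted p = 0.0495), while ACTA2 was at -0.05 ± 0.18. So ACTA1, which missed the threshold in the joined class, was lower at E21 in each part of it, and ACTA2 passed in the MYOG-high part and not in the other. MYH3-high cells made up 20 of 68 (E18-ZZ) and 44 of 127 myocyte-like cells (E18-DZ), and 78 of 240 (E21-ZZ) and 81 of 225 (E21-DZ).

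The mix of both striated alpha-actins differed between these stages in every library. ACTA1 made up 21.8% of the UMIs of ACTA1 and ACTC1 together in MYH3-high cells of E18-ZZ (95% exact binomial interval 20.2% to 23.5%) and 26.3% in E18-DZ (24.8% to 27.9%). At E21 it made up 5.06% (ZZ) and 6.00% (DZ), and at E28 4.21% (ZZ) and 4.43% (DZ). In MYOG-high cells the shares were 3.56% and 4.32% at E18 and 0.0995% to 0.306% later. The intervals cover counting error only, and the share depends on how well each RNA is captured, so it serves to compare libraries and not genes.

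Cells with the same number of MYH3 UMIs also differed by stage. Among myocyte-like cells with 10 to 49 MYH3 UMIs, ACTC1 was at 9865 CPM in E18-ZZ and 9769 CPM in E18-DZ, against 27956 to 37067 CPM in the 4 later libraries. ACTA1 in the same cells was at 2222 and 3196 CPM at E18, at 1900 (ZZ) and 1673 CPM (DZ) at E21 and at 897 (ZZ) and 1128 CPM (DZ) at E28. At 2 to 9 MYH3 UMIs the gap was wider, with 1632 and 1847 CPM of ACTA1 at E18 and 265 to 630 CPM later. The bins hold 15 to 56 cells per library and count UMIs without regard to the depth of the cell.

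**Figure D3:**
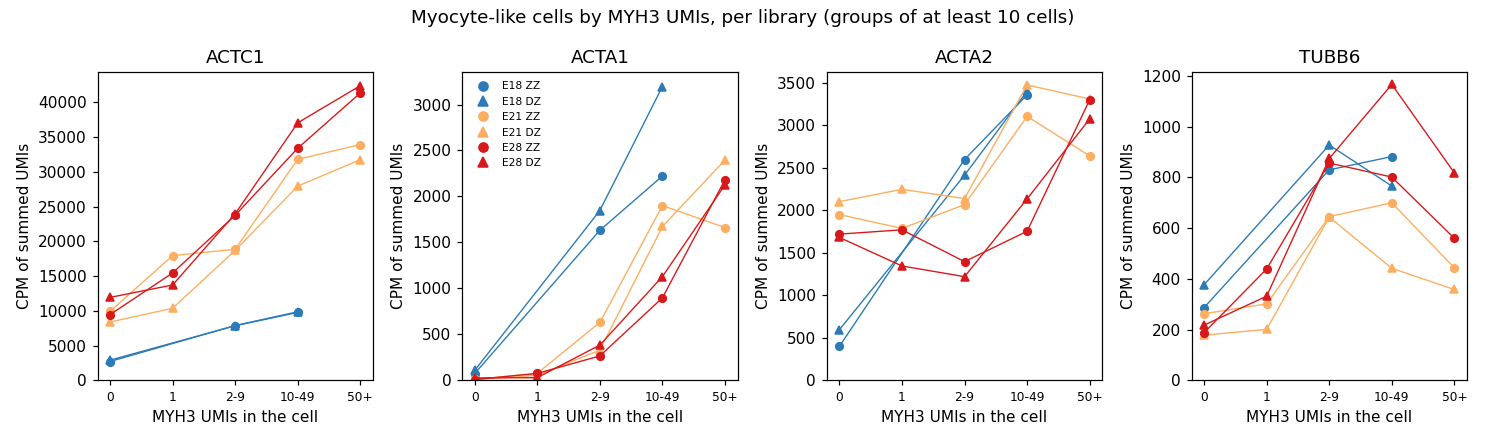
CPM of 4 of the genes in myocyte-like cells grouped by their MYH3 UMIs; each line is a library, coloured by stage, and groups under 10 cells are not drawn. At 10 to 49 MYH3 UMIs the E18 libraries had 9865 and 9769 CPM of ACTC1 against 27956 to 37067 CPM later, and at 2 to 9 MYH3 UMIs their ACTA1 was at 1632 and 1847 CPM against 265 to 630 CPM later.

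From E21 to E28 the myocyte-like cells differed less. ACTA1 was lower at E28, with a log2 fold change of -0.77 ± 0.17 (edgeR, adjusted p = 0.0185), and ACTC1 (-0.07 ± 0.18), ACTA2 (-0.43 ± 0.18) and TUBB6 (0.11 ± 0.17) did not pass. That is 1 of 4 tested genes, where 4.14% of 8953 genes were called. Neither part of the class held the call. In MYH3-high cells ACTA1 was at -0.13 ± 0.18 (edgeR, adjusted p = 0.843), and edgeR called 0 of 4 genes, where 4.00% of 6269 were. TUBB6 alone had an unadjusted p under 0.05 there, 0.00263, at 0.62 ± 0.20 (edgeR, adjusted p = 0.0592). In MYOG-high cells ACTA1 was at -0.63 ± 0.31 (adjusted p = 0.380), and edgeR called 0 of 4 genes, where 3.45% of 7614 were, with 0 at an unadjusted p under 0.05, and DESeq2 was not run on the parts. The share of MYH3-high among myocyte-like cells moved with the call, from 78 of 240 (E21-ZZ) and 81 of 225 (E21-DZ) to 78 of 430 (E28-ZZ) and 127 of 828 (E28-DZ). The call was also lost without E28-ZZ (-0.69) or E28-DZ (-0.86), with a mitochondrial limit of 5% (-0.59) and under the second seed (-0.69). It was lost too in cells of any cluster with 2 or more MYH3 UMIs (-0.38). Without E21-ZZ, ACTA2 was called at -0.62.

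In Pax3+ progenitor-like cells, the earliest state, ACTC1 and ACTA2 were lower at E18 than at E16. ACTC1 was at 164 CPM in E16-ZZ and 395 CPM in E16-DZ, and at 101 CPM in E18-ZZ and 89.8 CPM in E18-DZ. ACTA2 was at 52.9 and 69.9 CPM at E16 and at 15.8 and 8.37 CPM at E18. The log2 fold changes were -1.58 ± 0.28 (edgeR, adjusted p = 0.000736) and -2.61 ± 0.25 (adjusted p = 2.11e-07), 2 of 4 tested genes where 6.43% of 9760 genes were called. The 8 cardiac markers summed to 40.5 (ZZ) and 56.5 CPM (DZ) in these cells at E16 and to 33.6 and 29.6 CPM at E18, and their part in the result was not tested. Both calls were lost in cells of any cluster with a PAX3 UMI and none of MYF5, MYOD1, MYOG, MYH3 or the neural genes PAX6 and SOX10 (-0.90 and -0.89). In the PAX3-selected cells of the myogenic clusters described above, which were not tested, ACTA2 was at 55.9 and 59.7 CPM at E16 and at 11.5 and 6.94 CPM at E18. The call of ACTC1 was lost also with DESeq2 (-1.42) and without E18-DZ (-0.67, adjusted p = 0.656), while without E18-ZZ it was at -2.51. The third seed kept both (-1.30 and -2.13), and the second had no such cells to compare. With each library left out in turn, ACTA2 was at -3.21 to -1.94. Its lower level at E18 was not particular to this state. The unnamed cluster 2, led by MICALL2 and PAX1, had 59.2 and 46.5 CPM at E16 and 14.8 and 15.9 CPM at E18. Chondrocyte-like cells had 31.9 and 55.9 CPM at E16 and 23.7 and 22.2 CPM at E18 (ZZ first). In epithelial-like cells ACTA2 was higher at E18, as given below.

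In progenitor/myoblast-like cells ACTC1 was the gene that differed between E28 and E21, by 1.08 ± 0.23 on the log2 scale (edgeR, adjusted p = 0.00288). ACTA2 (0.25 ± 0.20), TUBB6 (0.29 ± 0.22) and ACTA1 (-0.27 ± 0.56) did not pass, so 1 of 4 tested genes was called where 5.20% of 10648 genes were. Without E28-DZ, the library with the most ACTC1 in erythroid-like cells, the change was 0.30 (adjusted p = 0.955). The call was also lost without E18-ZZ (1.02) or E18-DZ (1.02), with DESeq2 (1.09), with no doublets removed (0.82), with a mitochondrial limit of 5% (0.51) and with the 5 genes allowed in the clustering (0.73). Without E21-DZ the change was 0.65 and without E28-ZZ 1.76.

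Cardiac muscle cell-like cells carried ACTC1, ACTA2 and ACTA1 together, at levels set by the choice of genes and given without a test. ACTC1 was at 21325 CPM in E16-ZZ, 20393 CPM in E16-DZ, 21135 CPM in E18-ZZ and 19678 CPM in E18-DZ. All 4 lay above the 11063 and 10289 CPM of MYH3-high cells of E18 and below the 28863 to 41269 CPM of E21 and E28. ACTA2 was at 5467 and 5446 CPM at E16 and at 3952 and 3297 CPM at E18 (ZZ first). After thinning, all 316 cardiac cells had a UMI of ACTC1, 99.1% of ACTA2, 41.8% of ACTA1 and 6.65% of ACTG2.

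Between the stages the minor actins of these cells changed in opposite directions. ACTG2, the gamma smooth muscle actin, was at 74.7 CPM in E16-ZZ, 51.2 CPM in E16-DZ, 743 CPM in E18-ZZ and 526 CPM in E18-DZ. ACTA1 was at 918, 1274, 280 and 173 CPM in the same libraries. Neither gene overlapped between the stages, and ACTA2, which did not pass the test, did not overlap either. The share of all genes that did not overlap is not given, in this or any other comparison. The log2 fold change of E18 against E16 was 3.27 ± 0.23 for ACTG2 (edgeR, adjusted p = 3.64e-08) and -2.28 ± 0.27 for ACTA1 (adjusted p = 9.40e-05), the lowest and the second lowest p of the 3976 genes tested. ACTC1 (-0.09 ± 0.19), ACTA2 (-0.66 ± 0.20, adjusted p = 0.170) and TUBB6 (0.19 ± 0.53) did not pass. Thus 2 of 5 genes were called, where 0.503% of all tested genes were. Both calls held with DESeq2 (3.27 and -2.31) and under the second (3.26 and -2.37) and the third seed (3.32 and -2.32). ACTA2 was called as well with no filter on low counts (-0.80), with the 5 genes allowed in the clustering (-0.89) and with no doublets removed (-1.01), where ACTC1 was called too, at -0.58.

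The 4 libraries hold 28 to 267 cardiac cells and leave 1 residual degree of freedom, so no fit was made without 1 of them. The 8 cardiac markers summed to 24811 and 22904 CPM at E16 and to 20822 and 16084 CPM at E18, and the 7 markers of mural and smooth muscle cells to 395 and 238 CPM and to 357 and 337 CPM (ZZ first). Of the latter, MYH11, which defines mature smooth muscle, was at 0 in 3 of the libraries. The 5 erythroid markers summed to 7139 CPM in E18-ZZ and to 164 to 621 CPM in the other 3 libraries. The median depth of the cells was 5915 and 4492 UMIs at E16 and 3373 and 2205 UMIs at E18. The part of these values in the result was not tested. Over all cardiac cells, ACTG2 had a UMI in 13.51% and 4.49% of cells at E16 and in 18.0% and 25% at E18, without thinning. In the sub-cluster with more UMIs per cell, which held only 24 (ZZ) and 10 (DZ) cells at E18, the latter under the minimum of 20 cells used elsewhere, ACTG2 was at 46.1 and 56.8 CPM at E16 and 1062 and 488 CPM at E18, in 15.0% and 6.62% of cells at E16 and in 45.8% and 50% at E18, with up to 54 UMIs in 1 cell. ACTA1 was at 882 and 1262 CPM there at E16 and at 94.6 and 35.7 CPM at E18. In the other sub-cluster ACTG2 was uneven, at 522 and 17.5 CPM at E16 and 0 and 611 CPM at E18, and ACTA1 was at 1487 and 1347 CPM at E16 and at 712 and 478 CPM at E18.

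**Figure D4:**
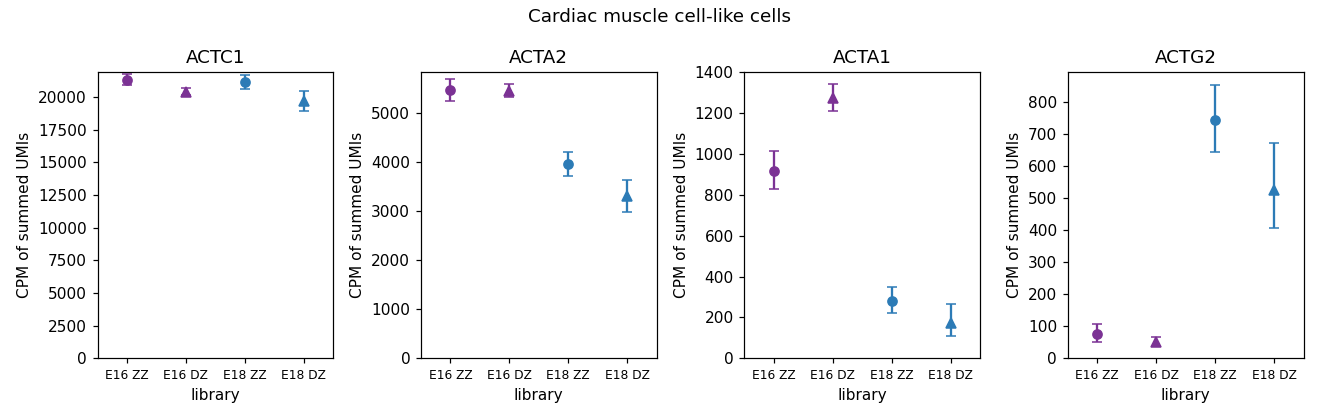
CPM of the 4 actins in cardiac muscle cell-like cells of the 4 early libraries; each point is a library and bars are 95% Poisson intervals that cover counting error only. ACTG2 was at 74.7 and 51.2 CPM at E16 and at 743 and 526 CPM at E18, ACTA1 went the other way, and ACTC1 stayed between 19678 and 21325 CPM.

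In some classes outside striated muscle, much of the ACTA2 lay in few cells. Of 65289 cells outside striated muscle, 185 had 20 or more UMIs of ACTA2, with a median of 36 UMIs. Epithelial-like cells held 84 of them and fibroblast-like cells 76, which carried 49.9% and 60.7% of the ACTA2 UMIs of these classes. Elsewhere such cells carried less. They held 13.8% in chondrocyte-like, 13.7% in lateral plate/coelomic mesoderm-like, 10.8% in cluster 5, 10.3% in endothelial-like and 5.73% in neural stem cell-like cells. In epithelial-like cells ACTA2 was at 244, 44.2, 729 and 559 CPM in E16-ZZ, E16-DZ, E18-ZZ and E18-DZ. In fibroblast-like cells it was at 594 (ZZ) and 904 CPM (DZ) at E18, at 41.5 and 257 CPM at E21 and at 72.7 and 69.7 CPM at E28, and 1 cell of E21-DZ held 571 UMIs. Cluster 27 was led by LAMC3 and SLC1A3, with the pericyte gene RGS5 among its leading genes. It also passed the limits for the fibroblast markers COL3A1, COL1A1, COL1A2, LUM and COL6A3, and was left unnamed. In cluster 27, 5 of 717 cells held 67.8% of the ACTA2.

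ACTG2 in cluster 27 was steadier than ACTA2, at 123 (ZZ) and 109 CPM (DZ) at E21 and 136 and 127 CPM at E28. In lateral plate/coelomic mesoderm-like cells it was at 1.71 and 1.48 CPM at E16 and 13.4 and 12.2 CPM at E18 (ZZ first), and in epithelial-like cells at 3.89 and 1.58 CPM and at 61.8 and 45.6 CPM. These differences between the stages were not tested. Endothelial-like cells had the highest median TUBB6 of the classes outside muscle, 116 CPM, with 67.8 to 166 CPM over all 8 libraries. None of ACTA2 (-0.60 ± 0.55), ACTC1 (1.48 ± 0.56, adjusted p = 0.0784) and TUBB6 (0.38 ± 0.22) passed between late (E21 and E28) and early (E16 and E18) libraries there, that is 0 of 3 tested genes, where edgeR called 26.1% of 9144 genes. ACTC1 had an unadjusted p of 0.0253, the only one of the 3 under 0.05, and passed with DESeq2 (1.48), with no filter on low counts (1.44) and without E21-DZ (1.83). Without E28-DZ it was at 0.58 (edgeR, adjusted p = 0.492), and that library had 127 CPM of ACTC1 in these cells against 8.69 to 42.3 CPM in the other 7.

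In fibroblast-like cells 3 of 5 genes differed between E28 and E21, where 11.1% of 11656 genes were called. ACTC1 rose by 1.67 ± 0.33 on the log2 scale (edgeR, adjusted p = 0.00671) and TUBB6 by 1.17 ± 0.25 (adjusted p = 0.0101), and ACTG2 fell by 2.62 ± 0.40 (adjusted p = 0.00161), while ACTA2 (-0.83 ± 0.49) and ACTA1 (1.32 ± 0.62) did not pass. ACTC1 was at 40.8 (ZZ) and 45.3 CPM (DZ) at E21 and at 77.0 and 256 CPM at E28. The 9 myocyte markers summed to 38.7 and 41.4 CPM at E21 and to 70.9 and 234 CPM at E28 in the same cells, and ACTC1 in erythroid-like cells stood at 12.7 and 18.0 CPM and at 22.1 and 173 CPM. Their part in the result was not tested.

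The result for ACTG2 in fibroblast-like cells depended on the cluster borders. It was at 9.24 and 30.1 CPM at E21 and at 1.53 and 5.35 CPM at E28, and 31 of 13745 cells held 64.3% of its UMIs. The change was -1.86 under the second seed but 0.11 under the third, 0.41 with a mitochondrial limit of 5% and -0.02 with the 5 genes allowed in the clustering, none of the last 3 called. ACTA2 was at 0.35 under the second seed, 0.82 under the third and 0.80 with the 5 genes allowed in the clustering. Without E28-DZ, ACTC1 was still called at 1.07 and TUBB6 was not, at 0.71, nor was TUBB6 without E21-DZ (0.94). ACTA2 was called without E21-ZZ (-1.87) or E28-ZZ (-1.57) and with no filter on low counts (-0.82), and was at 0.68 without E21-DZ and -0.01 without E28-DZ. ACTA1 was called without E28-ZZ (2.33) and with no filter on low counts (1.33), and was at -0.07 without E28-DZ. TUBB6 was at 8.70 and 11.2 CPM at E21 and at 13.7 and 37.7 CPM at E28.

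In whole libraries, late against early, ACTC1 was 4.30-fold higher. It was at 168 to 492 CPM in the 4 early and at 781 to 3021 CPM in the 4 late libraries, with no overlap. The log2 fold change was 2.10 ± 0.49 (edgeR, adjusted p = 0.0141), and it stayed called without any 1 library (1.61 to 2.49) but not without both E16 libraries (2.73, adjusted p = 0.0585). ACTA1 was at 11.4 to 29.0 CPM early and 25.04 to 68.9 CPM late, which overlap, and was called at 0.88 ± 0.24 (adjusted p = 0.0253). That call was lost without E16-ZZ (0.87), E18-ZZ (0.89), E18-DZ (0.75), E21-ZZ (0.84), E28-ZZ (0.89) or E28-DZ (0.66), and without both E16 libraries (1.08). ACTA2 (0.52 ± 0.29), TUBB6 (0.46 ± 0.41) and ACTG2 (-0.11 ± 0.74) did not pass, although ACTA2 did without E21-ZZ (0.76). Thus 2 of 5 genes were called, where 34.4% of 14682 genes were.

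The make-up of the libraries moved with these values. Progenitor/myoblast-like cells were 0.0842% to 0.595% of cells early and 5.70% to 14.5% late, MYH3-high cells 0% to 0.468% early and 0.746% to 1.16% late, and cardiac cells, which carry ACTC1 and ACTA1, were 0.298% to 2.81% early and absent late. The genes were chosen by their levels in these states, so the calls in whole libraries are not independent of that choice. In a sum over all cells, more cells of a type and more RNA per cell cannot be told apart.

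None of these genes passed edgeR's test between the breeds, which does not show that their levels were alike. In whole libraries with the stage as a block, 0 of 5 genes and 0% of 15119 genes were called by edgeR, while 915 genes had an unadjusted p under 0.05 and DESeq2 called 57. Of the 5, ACTA1 was the one with an unadjusted p under 0.05, at 0.84 ± 0.21 on the log2 scale (DZ against ZZ, adjusted p = 0.757). Its CPM was higher in DZ at all 4 stages, and DESeq2 called it (adjusted p = 0.0355). MYH3-high cells were also a larger share of cells in DZ, at 0.468% against 0.215% at E18, 0.881% against 0.746% at E21 and 1.16% against 0.789% at E28. Cardiac cells were 2.81% (DZ) and 1.36% (ZZ) at E16 but 0.298% and 0.656% at E18, and the part of these shares in the result was not tested. In myocyte-like cells edgeR and DESeq2 called 0 of 4 tested genes, where 0.112% of 8953 genes were called by edgeR. ACTA1 alone had an unadjusted p under 0.05 there, at 0.31 ± 0.14 (adjusted p = 0.847). The difference of the late against early change between breeds did not pass for any of the 5 genes (adjusted p = 0.9999).

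**Figure D5:**
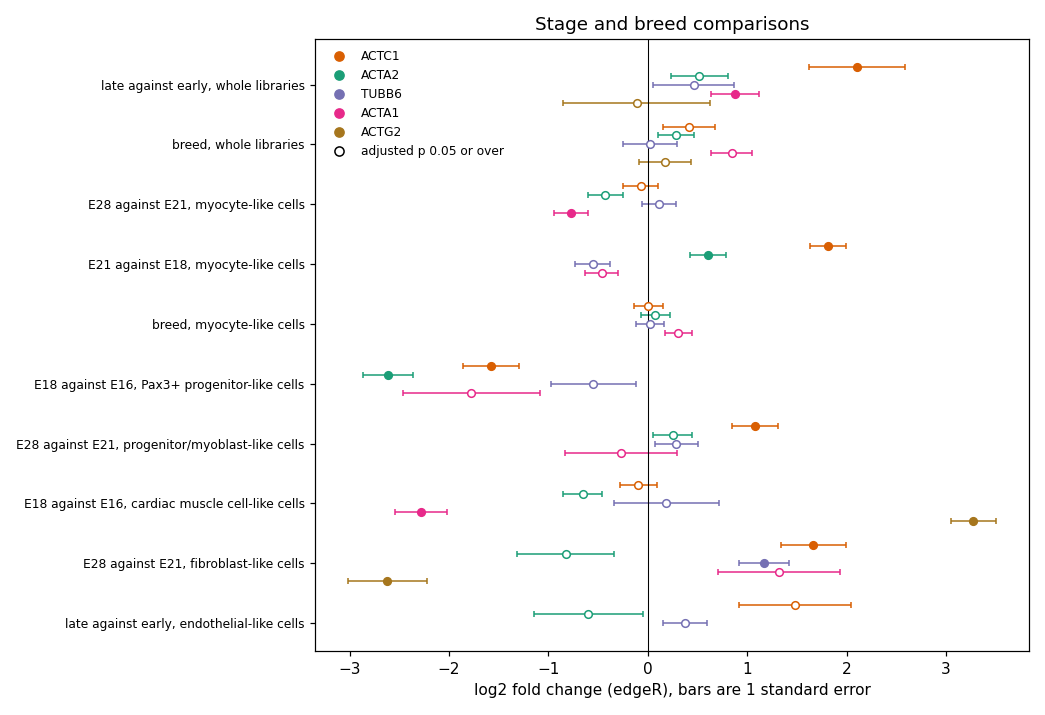
Log2 fold change of each gene in the 10 comparisons, with bars of 1 standard error; filled points have an adjusted p under 0.05 in edgeR's quasi-likelihood test and genes too low to be tested are not drawn. ACTC1 is at 2.10 in whole libraries and 1.82 in myocyte-like cells of E21 against E18, and the largest change is that of ACTG2 in cardiac cells, 3.27.

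Genes that work with actin were counted from lists chosen with earlier results known. Of 16 thin filament partners, 12 were tested in myocyte-like cells, and at E21 against E18 7 rose and 2 fell with a median log2 change of 0.63 (0.04 over all genes). In the same comparison 11.5% of 8953 genes were called, 603 higher and 428 lower, which is the background for each list. At E28 against E21, where 4.14% of genes were called, 0 of the 12 rose and 2 fell, with a median of -0.45 (-0.01 over all genes), and the comparison with E18 was the one added after the values were seen. MYH3-high cells were a smaller share of myocyte-like cells at E28 than at E21, by the counts given above, and the part of that shift in the list counts was not tested. At E21 against E18 TNNC2, the calcium sensor of fast fibres, rose by 1.38 ± 0.18, TNNC1, that of slow and cardiac muscle, by 1.12 ± 0.18 and LMOD2, which lengthens thin filaments, by 2.53 ± 0.58. The tropomyosin TPM2 rose by 0.61 ± 0.17, whereas the tropomyosins TPM1 and TPM4 fell by 0.64 ± 0.18 and 0.67 ± 0.19. Of 10 tested smooth muscle genes, 2 rose and 4 fell, with a median of -0.59, and at E28 against E21 0 rose and 2 fell, with a median of -0.64. Among them the myosin light chain MYL9 fell by 1.59 ± 0.18 and DES, the intermediate filament desmin, fell by 0.90 ± 0.17, while the light chain MYL6 rose by 1.18 ± 0.17. The non-muscle actins ACTB (0.41 ± 0.22) and ACTG1 (-0.08 ± 0.17) did not pass, nor did any of 8 tested tubulins. Of 4 tested regulators of actin genes, 1 passed, the muscle factor MEF2C at 0.76 ± 0.18. At E28 against E21, 1 of the non-muscle actins, 1 tubulin and 1 regulator fell and none rose.

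The genes most like each member over 127 sums of cell state and library were read from Pearson's r of log2(CPM + 1), among 10971 genes and with no test, since sums of 1 library share its depth. ACTA1 was most like CSRP3 (r = 0.87), SRL (0.87) and TNNC1 (0.87), genes of the sarcomere and its surroundings. For ACTC1 the closest named genes were ACTN2 (0.88), the alpha-actinin of the Z-disc, TRIM55 (0.88) and FITM1 (0.86). ACTA2 was closest to the tropomyosin TPM2 (0.83) and to NEXN (0.82), an actin-binding protein, and TUBB6 to the myosin light chain MYL12A (0.77), IL18 (0.75) and the factor MEF2C (0.74). ACTG2 was closest to CNN1 (0.65), the smooth muscle calponin, followed by SLC16A12 (0.61), with the pericyte gene RGS5 at 0.58.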

How the data were processed

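The matrices were deposited as UMI counts per gene and cell. The authors made them from 10x 3' v3 reads with Cell Ranger 3.1.0 (both E16 libraries) and 3.0.2 (the others) against Sscrofa11.1 with Ensembl release 98. No value was normalised before deposit. Barcodes with under 200 genes, over 30000 UMIs or over 10% mitochondrial UMIs were removed (82394 of 90688 passed), and then the 8247 cells with the highest Scrublet scores (0.8% per 1000 barcodes), since its automatic threshold marked 783. Cells were clustered (scanpy 1.11.5, igraph 0.11.9, umap-learn 0.5.12) on 2000 variable genes without the 5 members, 30 principal components and 3 neighbours per library. A cluster was named where at least 3 markers were in at least 10% of cells at 2-fold or more (1.5-fold for sub-clusters), which left 15256 cells unnamed. Counts were summed per library and state where it had at least 20 cells, and tested with edgeR 4.0.16 (quasi-likelihood, TMM, filterByExpr, Benjamini-Hochberg over all genes tested, threshold 0.05) in R 4.3.3 with limma 3.58.1. The terms were stage and breed, or breed alone for late against early. DESeq2 1.42.0 was an alternative. Standard errors are the log2 fold change over the root of F. The test was checked on simulated data. Clustering with the second and the third Louvain seed was added after seeing the data. Each library was 1 pool of a stage and breed, and stage served as the block that pairs the breeds.

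Levels are CPM of summed counts. Intervals are 95% exact ones, and they cover counting error only. Thinning to 1500 UMIs left out 3421 cells. The genes named were the 5 members, lists of their partners, and the genes most like each member with at least 10 CPM in 6 sums. Members and lists were chosen with earlier results of these data known. Promoters and transcripts came from RefSeq (Biopython 1.88), and figures from matplotlib 3.10.9.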

Additional observations from a re-analysis of the deposited data

Results flagged for a closer look

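In the late whole libraries, 1 library stood apart in ACTA1. E28-DZ had 68.9 CPM, while E21-ZZ, E21-DZ and E28-ZZ had 29.6, 31.2 and 25.04 CPM, and the gap between E28-DZ and the next library made up 0.860 of the range. It alone was past the limit among 20 checks (5 genes, early and late libraries, highest and lowest library), and chance puts about 1 in 20 groups of like libraries past it. The late libraries differ in stage, tissue and breed, so that rate need not hold here. E28-DZ was the highest late library for ACTC1, TUBB6 and ACTA2 too, with gaps of 0.787, 0.724 and 0.529 of the range. E28-DZ also held the largest share of MYH3-high cells, 1.16% against 0.746% to 0.881% in the other late libraries, and its part in the value was not tested.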

How the results depend on the processing

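Counts of genes at an adjusted p under 0.05 moved by over 1.5 times as follows. DESeq2 gave 57 for breed in whole libraries, 111 for E28 against E21 and 532 for E21 against E18 in myocyte-like cells, 72 in Pax3+ cells, 191 in progenitor/myoblast-like cells and 5 in cardiac cells. With no filter on low counts the counts were 1 and 82 for breed in whole libraries and in myocyte-like cells, 621 for E28 against E21 in myocyte-like cells and 49 in cardiac cells. With no doublets removed they were 1 for breed in whole libraries and 177 in cardiac cells. A mitochondrial limit of 5% gave 438 for E21 against E18 and 44 for breed in myocyte-like cells, 348 in progenitor/myoblast-like and 568 in fibroblast-like cells. With the members among the variable genes, progenitor/myoblast-like cells gave 240 and cardiac cells 141. The second Louvain seed gave 198 for E21 against E18 and 27 for breed in myocyte-like cells, and the third 71 in cardiac cells. In cells of any cluster with 2 or more MYH3 UMIs, E28 against E21 gave 176 and E21 against E18 673. MYH3-high cells alone gave 683 for the latter, and cells of any cluster chosen by PAX3 gave 284 in place of Pax3+ cells. With both E16 libraries left out, late against early gave 1338. For E21 against E18 in myocyte-like cells, the counts at 5% and with the second seed rest on E18-DZ alone for E18.

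The stage was the block that pairs the breeds. With no replicate block, breed gave 0 genes in myocyte-like cells and 0 in whole libraries, and no call of the 5 genes changed.

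Leaving out each library in turn gave 2966 to 4682 genes late against early, 189 to 630 at E28 against E21, 609 to 1191 at E21 against E18 and 7 to 114 for breed in myocyte-like cells, 58 to 1456 in Pax3+ cells, 187 to 848 in progenitor/myoblast-like cells, 569 to 2557 in fibroblast-like cells and 1255 to 2355 in endothelial-like cells. In these fits log2 fold changes that were not called changed sign, with ranges of -0.81 to 0.59 for ACTG2 and -0.050 to 0.81 for TUBB6 late against early, -0.086 to 0.45 and -0.27 to 0.34 for the same genes by breed, and -0.21 to 0.061 for ACTC1 and -0.023 to 0.24 for TUBB6 at E28 against E21 in myocyte-like cells. By breed in myocyte-like cells the ranges were -0.070 to 0.17 for ACTA2, -0.082 to 0.074 for ACTC1 and -0.068 to 0.10 for TUBB6. In progenitor/myoblast-like cells they were -1.08 to 0.42 for ACTA1 and -0.19 to 0.74 for TUBB6, and in fibroblast-like cells -0.066 to 2.33 for ACTA1 and -1.87 to 0.68 for ACTA2.

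The values at 2 MYH3 UMIs given next are from cells of any cluster. Other settings turned the sign of TUBB6 by breed in whole libraries (-0.061 at 5%). In myocyte-like cells they turned ACTC1 at E28 against E21 (0.014 with the members among the variable genes, 0.071 at 2 MYH3 UMIs, 0.25 in MYH3-high and 0.17 in MYOG-high cells, where TUBB6 was at -0.041), ACTA2 at E21 against E18 (-0.30 with the second seed, -0.046 in MYH3-high cells), and by breed ACTC1 (-0.0074 with DESeq2, -0.079 with doublets kept, -0.0018 with the members among the variable genes, -0.14 at 2 MYH3 UMIs) and TUBB6 (-0.017, -0.025 and -0.033 in the last 3 of these). Elsewhere they turned TUBB6 in cells chosen by PAX3 (0.11), in progenitor/myoblast-like cells (-0.49 at 5%, -0.14 with the members among the variable genes) and in cardiac cells (-0.044 with these), ACTA2 in progenitor/myoblast-like cells (-0.21 at 5%), in endothelial-like cells (0.60 with doublets kept) and in fibroblast-like cells (1.13 at 5%, 0.80 with the members among the variable genes, 0.35 and 0.82 with the second and the third seed), and ACTG2 in fibroblast-like cells (0.41 at 5%, 0.11 with the third seed). The cause was not tested in any of these.

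Not run were the Pax3+ comparison at 5%, with the members among the variable genes and with the second seed, the progenitor/myoblast-like one with the second seed, the cardiac and endothelial-like ones at 5%, and the cardiac one without 1 library, since no or too few cells were left in a group or the fit had no spread left.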
